A study of Mus musculus with 11 samples.

Results

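Acetylation of histone H3 at lysine 27 (H3K27ac) was compared between apicidin-treated and DMSO-treated Beko cells, over all 56342 of the 56342 regions of the authors' deposited table, read through its apicidin columns. Beko is a mouse pre-T cell line, grown as 1 line in every group. The treated group (2 H3K27ac libraries) received 0.01 mg/ml apicidin for 24 h and the control group (2 libraries) received DMSO for 24 h, doses as labelled. A further group with the gamma-secretase inhibitor DAPT (GSI, 10 mg/ml, 24 h, 2 libraries) shares the DMSO libraries, so its values are set beside those of apicidin for single loci and are not independent of them. Genes outside the usual Notch targets are described here, by gene family and by locus.

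Acetylation at lysine 27 is laid down mainly by the acetyltransferases p300 and CBP and removed by histone deacetylases, and it marks active promoters and enhancers. Apicidin is a cyclic tetrapeptide that inhibits class I histone deacetylases, and the series describes it as an inhibitor of HDAC3, the catalytic subunit of the NCoR and SMRT corepressor complexes. In thymocyte precursors the mark lies over the T cell receptor genes, their signalling genes and the transcription factors that set T-lineage fate.

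The table holds no value per library, so each value below is the authors' log2 fold change with its standard error (SE), positive where apicidin was higher, and depth per library is unknown. The base mean is the authors' mean of normalised reads for a region and is the only measure of strength. A region was called where the authors' adjusted p was under 0.05: 5462 regions (9.69%) were called higher, 7958 (14.1%) lower and 42922 were not called. Whether the 2 libraries of a group are separate cultures is not labelled, so a p-value reflects spread among libraries that could be technical. Normalisation may have removed a change common to all regions, so higher and lower are relative to the other regions. On centring at the stronger regions, whose median was -0.10, the split became 7149 higher and 5866 lower, and with a base mean trend removed it was 6511 and 5917. Of 12 T-lineage marker genes 12 had a region and 11 had one over the transcription start site (TSS), with a median base mean of 2801 by each gene's strongest region. In short lists of 3 or 4 defining markers, those of B-lineage, myeloid, erythroid, natural killer, and fibroblast and epithelial cells had 0 regions over a TSS. In wider lists such regions belonged to 5 of 11 B-lineage, 2 of 12 myeloid, 2 of 8 erythroid and megakaryocyte, 7 of 11 natural killer and innate lymphoid, and 4 of 13 fibroblast and epithelial genes. For the short lists, regions elsewhere, with base means of 32.5 to 871, were assigned to 3 of 4 B-lineage, 2 of 3 erythroid, 1 of 3 natural killer and 3 of 4 fibroblast and epithelial markers, and to 0 of 4 myeloid markers; their part in the results was not tested.

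Which promoters lost and which gained acetylation was asked by gene family. Each of 7754 genes with a region over its TSS was represented by the strongest such region; 3073 of these promoters (39.6%) were called lower and 612 (7.89%) higher, with a median log2 fold change of -0.24. The split was 2251 lower and 919 higher on centring, and 2005 and 1021 with the trend removed. Of 63 families with at least 10 promoters, 56 had more lower than higher promoters, or 41 on centring. Mitosis genes, chromatin remodellers, acetyltransferases and stress response genes were among the families with the largest lower shares, whereas the GIMAP GTPases and T cell surface and receptor signalling genes had more higher than lower promoters. For the families named below, the larger of the higher and lower counts was on the same side after centring and after subtracting the trend, except where stated.

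**Figure D1:**
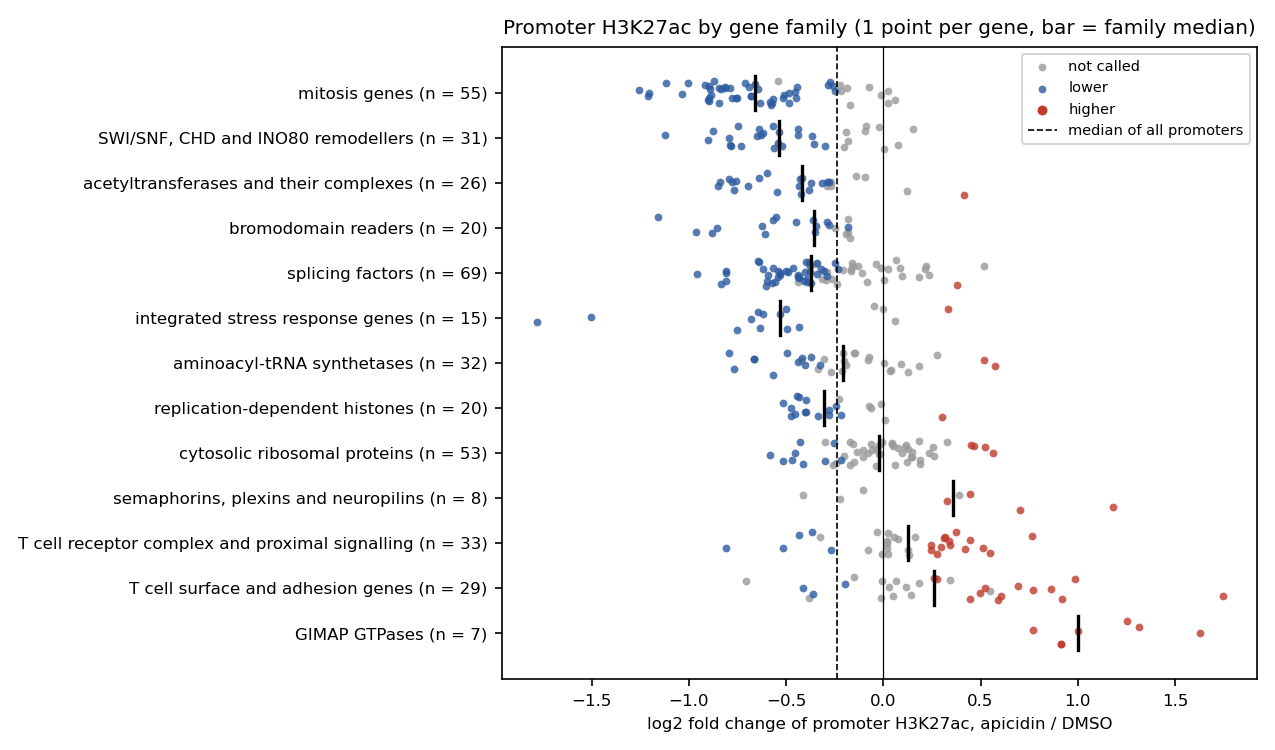
Log2 fold change of promoter H3K27ac, apicidin over DMSO, for each gene (point) of 13 families, coloured by the call in the authors' deposited table; the short bar is the family median and the dashed line the median of all promoters, -0.24. Mitosis promoters lie mostly left of the dashed line, at -1.25 to 0.06, and the 7 GIMAP promoters lie at 0.77 to 1.63.

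Promoters of mitosis genes, which build the spindle, drive chromosome segregation and time the exit from mitosis, were lower as a group. Of 55 such promoters 45 (81.8%, against 39.6% of all promoters) were lower, 0 were higher and 10 were not called. The median was -0.66 against -0.24 for all promoters. The count of lower mitosis promoters was 39 on centring and 37 after subtracting the trend. In the authors' deposited table the largest falls were at Kif4, a chromosome-bound kinesin (-1.25 ± 0.14 SE, adjusted p = 6.89e-17), and Ccnb2, a mitotic cyclin (-1.21 ± 0.11, adjusted p = 1.09e-23). The genes of the anaphase machinery Cdc20 and Ube2c were at -0.89 ± 0.09 and -0.75 ± 0.12, and the spindle checkpoint kinase gene Bub1 was not called (0.02 ± 0.17, adjusted p = 0.95), by the authors' deposited table. With GSI, Ccnb2 stood at 0.36 ± 0.11 and Kif4 at 0.06 ± 0.14 in the authors' deposited table.

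Mitosis promoters commonly carry a cell cycle genes homology region (CHR, TTTGAA, the binding site of the MuvB complexes) downstream of CCAAT boxes (CCAAT, bound by NF-Y). RefSeq windows of 300 bases, from 250 bases before to 50 after the start, were matched by transcript or symbol, and 5000 promoters with a single window were searched on both strands; the letters CHR and CCAAT do not overlap. A CHR lay in 59.5% of 42 mitosis promoters and in 12.3% of all, and a CCAAT box in 64.3% against 39.4%. In the part of the window nearest the start, 100 bases before to 50 after, 52.4% of mitosis promoters and 4.8% of all held a CHR. Replication-dependent histone promoters also held many (64.7% of 17 with a CHR), with a median GC content of 44.0% against 61.3% for all promoters, so base composition differs there too. Mitosis promoters were lower in 21 of 25 cases with a CHR (median -0.69) and in 13 of 17 without one (median -0.66). Among other genes, 114 of 253 promoters holding both motifs (45.1%) and 1818 of 4705 without both (38.6%) were lower. The CHR letters were added to the search after the family counts were seen, and a match is a description of letters, not of binding. The 4 lower mitosis promoters with the largest falls among those holding both motifs in the 150 bases before the start are shown because they display this arrangement; capitals mark CHR and CCAAT on either strand. They run 5′ to 3′ along the gene (RefSeq, GRCm38.p6): Cdc20 at chr4:118437344-118437493, minus strand; Cdk1 at chr10:69352913-69353062, minus strand; Ube2c at chr2:164769779-164769928, plus strand; and Mki67 at chr7:135716380-135716529, minus strand. The H3K27ac regions themselves are on mm9 and were not placed on this build.
Cdc20: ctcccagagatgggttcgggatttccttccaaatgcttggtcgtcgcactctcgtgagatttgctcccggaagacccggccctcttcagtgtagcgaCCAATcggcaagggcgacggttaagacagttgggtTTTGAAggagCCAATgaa
Cdk1: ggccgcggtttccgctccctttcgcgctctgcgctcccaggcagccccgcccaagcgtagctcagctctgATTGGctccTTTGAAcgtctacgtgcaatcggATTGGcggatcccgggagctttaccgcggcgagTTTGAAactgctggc
Ube2c: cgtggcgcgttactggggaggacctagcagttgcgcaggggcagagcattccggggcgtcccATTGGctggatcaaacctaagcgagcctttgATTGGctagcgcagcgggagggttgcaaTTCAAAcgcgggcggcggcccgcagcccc
Mki67: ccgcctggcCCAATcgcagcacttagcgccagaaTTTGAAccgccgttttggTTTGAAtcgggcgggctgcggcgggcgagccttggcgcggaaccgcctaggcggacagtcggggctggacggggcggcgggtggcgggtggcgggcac

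In Cdc20 and Cdk1 the CHR nearest the start lay 18 and 15 bases before it, and in Ube2c 29 bases before it. Mki67, the gene of a proliferation antigen, carried its CHRs at 116 and 98 bases before the start and no CCAAT box downstream of them. Cdk1, the mitotic cyclin-dependent kinase gene, stood at -0.78 ± 0.09 and Mki67 at -0.69 ± 0.08 in the authors' deposited table.

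Genes that write, read or move acetylated nucleosomes were mostly lower at their own promoters. Over all promoters 39.6% were lower and 7.89% higher, with a median of -0.24. Of 31 promoters of the SWI/SNF, CHD and INO80 remodellers, which slide or evict nucleosomes, 22 (71.0%) were lower and 0 higher (median -0.54). On centring 20 were lower and 1 higher. The largest falls in the authors' deposited table were at Ino80, the catalytic subunit of its complex (-1.12 ± 0.08, adjusted p = 3.02e-41), and Arid1b, a SWI/SNF subunit (-0.90 ± 0.08, adjusted p = 6.37e-25). Chd4, the remodeller of the deacetylase complex NuRD, was not called (0.15 ± 0.07, adjusted p = 0.134 in the authors' deposited table). Acetyltransferases and subunits of their complexes were lower in 19 of 26 promoters (73.1%) and higher in 1, Nat10 (0.41 ± 0.16, adjusted p = 0.036, per the authors' deposited table). Among them were the Tip60 complex subunit genes Epc1 and Epc2, at -0.79 ± 0.12 and -0.78 ± 0.10 in the authors' deposited table. Bromodomain readers, which bind acetylated lysine, were lower in 15 of 20 promoters (75.0%) and higher in 0. Their largest falls in the authors' deposited table were Baz2b (-1.16 ± 0.09, adjusted p = 8.65e-35) and Atad2b (-0.96 ± 0.09, adjusted p = 7.86e-26).

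Other chromatin families went the same way at smaller shares, some near the background of 39.6%. Lysine demethylases were lower in 11 of 19 promoters and higher in 1, Kdm6b, the demethylase of H3K27 (0.55 ± 0.06, adjusted p = 3.90e-16 in the authors' deposited table). Lysine methyltransferases were lower in 11 of 26 and higher in 0, a share of 42.3%. Replication-dependent histones were lower in 14 of 20 and higher in 1, with a median of -0.31. Deacetylases and sirtuins were split, 2 higher and 2 lower of 12. The NAD-dependent deacetylase gene Sirt1 fell by 1.14 ± 0.15 (adjusted p = 7.68e-12), while Sirt7, a nucleolar family member, rose by 0.47 ± 0.07 (adjusted p = 4.04e-09), both from the authors' deposited table.

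The integrated stress response is the translation-control program in which ATF4 induces amino acid, redox and apoptosis genes. Of its 15 promoters 11 (73.3%, against 39.6% of all promoters) were lower, 1 was higher and 3 were not called, with a median of -0.53. Fgf21, a secreted stress hormone gene, fell by 1.78 ± 0.19 (adjusted p = 2.64e-19) and Chac1, a glutathione-degrading enzyme gene, by 1.50 ± 0.16 (adjusted p = 3.17e-19) in the authors' deposited table. Ddit3, the gene of the pro-apoptotic factor CHOP, was the member called higher (0.33 ± 0.09, adjusted p = 0.00289, per the authors' deposited table). Its promoter region overlapped RBPJ. Of the 12 stress response promoters without such overlap 10 were lower and 0 higher. Aminoacyl-tRNA synthetases, several of which are ATF4 targets, were lower in 11 of 32 promoters, a share of 34.4%, below the background. Their largest fall in the authors' deposited table was at Aars, the alanyl-tRNA synthetase gene (-0.80 ± 0.10, adjusted p = 3.75e-14), while the mitochondrial enzyme gene Aars2 rose by 0.57 ± 0.09.

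ATF4 binds with C/EBP partners to the composite element CARE (TGATGNAA). The letters were found in 40% of 10 stress response promoters with a single window, in 18.2% of 22 tRNA synthetase promoters and in 2.2% of all 5000. From 100 bases before to 50 after the start the stress response share was 0%, that of tRNA synthetases 18.2% and that of all promoters 0.8%. Lower promoters of either family that hold the element in the 200 bases before the start are shown, the 4 with the largest falls among those with a single window, because they display the element; capitals mark the element, read here on the reverse strand. The windows (RefSeq, GRCm38.p6) are Fgf21 at chr7:45615491-45615690, minus strand; Chac1 at chr2:119351042-119351241, plus strand; Aars at chr8:111033642-111033841, plus strand; and Herpud1 at chr8:94386229-94386428, plus strand.
Fgf21: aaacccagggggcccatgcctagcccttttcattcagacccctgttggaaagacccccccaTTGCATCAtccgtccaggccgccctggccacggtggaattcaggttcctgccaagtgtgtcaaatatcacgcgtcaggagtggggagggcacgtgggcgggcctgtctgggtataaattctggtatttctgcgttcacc
Chac1: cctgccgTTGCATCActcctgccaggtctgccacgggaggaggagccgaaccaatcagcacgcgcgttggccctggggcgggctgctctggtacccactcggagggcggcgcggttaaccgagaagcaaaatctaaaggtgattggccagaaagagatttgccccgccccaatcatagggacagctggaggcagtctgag
Aars: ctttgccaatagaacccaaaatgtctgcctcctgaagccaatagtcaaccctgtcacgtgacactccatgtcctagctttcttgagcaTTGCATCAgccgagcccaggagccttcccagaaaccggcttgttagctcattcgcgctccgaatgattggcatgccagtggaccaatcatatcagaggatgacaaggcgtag
Herpud1: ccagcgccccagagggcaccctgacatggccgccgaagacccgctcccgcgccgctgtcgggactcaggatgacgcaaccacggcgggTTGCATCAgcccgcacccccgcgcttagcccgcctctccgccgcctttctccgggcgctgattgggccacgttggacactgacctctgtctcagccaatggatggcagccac

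The element lay 139 bases before the start in Fgf21, 193 in Chac1 and 112 in both Aars and Herpud1. Herpud1, a gene of protein degradation at the endoplasmic reticulum, stood at -0.64 ± 0.09 in the authors' deposited table. With GSI the promoters of Fgf21 and Chac1 stood at 0.08 ± 0.17 and -0.08 ± 0.15 in the authors' deposited table.

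Among housekeeping families, splicing factors and ribosomal proteins differed. Splicing factor promoters were lower in 41 of 69 cases (59.4%) and higher in 1, with a median of -0.37. In the authors' deposited table Sfrs18 fell by 0.96 ± 0.09 and Rbm39 by 0.83 ± 0.10, both genes of splicing regulators. Cytosolic ribosomal protein promoters had a median of -0.02, with 9 of 53 lower and 4 higher, a split that turned to 6 lower and 8 higher on centring and 5 and 13 after subtracting the trend. Respiratory chain subunits were lower in 29 of 68 promoters (42.6%), near the 39.6% of all promoters, and antioxidant and metal response genes in 11 of 18 (61.1%). Nqo1, a quinone reductase gene, fell by 1.23 ± 0.26 (adjusted p = 2.34e-05) and Slc7a11, the cystine transporter gene, by 0.84 ± 0.09 (adjusted p = 1.22e-18) in the authors' deposited table. Zbtb transcription factors were lower in 12 of 26 promoters (46.2%, against the same 39.6%) and higher in 0. Glycolysis genes ran against the background, with 7 of 18 promoters higher and 2 lower. Hk2, the hexokinase gene, rose by 1.00 ± 0.14 (adjusted p = 1.77e-10) and Pgk1 by 0.64 ± 0.16 (adjusted p = 3.56e-04) in the authors' deposited table.

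Every GIMAP promoter with a region was higher. GIMAP proteins are small GTPases of lymphocytes encoded side by side on mouse chromosome 6 and known for supporting T cell survival. All 7 promoters were called higher as deposited, on centring and after subtracting the trend, with a median of 1.00. The values in the authors' deposited table were 1.63 ± 0.14 for Gimap4, 1.31 ± 0.19 for Gimap8, 1.25 ± 0.09 for Gimap1, 1.00 ± 0.10 for Gimap7, 0.92 ± 0.12 for Gimap5 and for Gimap6, and 0.77 ± 0.07 for Gimap9. Of the family's 34 distal regions 10 were higher and 0 lower. At Gimap4 the GSI value was 0.36 ± 0.15, and at Gimap8 0.77 ± 0.19, in the authors' deposited table. These genes are neighbours, so their promoters are not independent of each other.

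T cell receptor and surface genes also had more higher than lower promoters, with many not called. Of 33 promoters of the receptor complex and its proximal signalling, 14 (42.4%) were higher, 5 lower and 14 not called, against 7.89% and 39.6% of all promoters. Rasgrp1, the Ras activator downstream of the receptor, rose by 0.76 ± 0.15 (adjusted p = 4.81e-06) and Nck2, an adaptor gene, by 0.55 ± 0.05 (adjusted p = 2.22e-28) in the authors' deposited table. The lower members included the Carma-Bcl10-Malt1 signalling gene Malt1 (-0.81 ± 0.20, adjusted p = 5.51e-04) and the second adaptor gene Nck1 (-0.52 ± 0.09, adjusted p = 3.91e-07), per the authors' deposited table. Of the receptor subunit genes, Cd3g rose by 0.25 ± 0.05 (adjusted p = 6.54e-05), whereas Cd3e (0.13 ± 0.06, adjusted p = 0.106) and Cd247 (0.07 ± 0.07, adjusted p = 0.511) were not called, by the authors' deposited table.

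Of 29 promoters of T cell surface and adhesion genes 13 (44.8%) were higher, 3 lower and 13 not called. Cd53, a tetraspanin gene of leukocytes, rose by 1.74 ± 0.14 (adjusted p = 1.12e-31) and Cd69, an early activation antigen gene, by 0.99 ± 0.13 (adjusted p = 8.02e-12) in the authors' deposited table. Cd4 (0.05 ± 0.08) and Cd8a (-0.01 ± 0.08) were not called in the authors' deposited table. Cd5, a negative regulator of receptor signalling, fell by 0.41 ± 0.12 and Cd24a, a marker of immature thymocytes, by 0.36 ± 0.07, per the authors' deposited table. Semaphorins and plexins, guidance ligands and their receptors, were higher at 4 of 8 promoters and lower at 0. Sema4a, which costimulates T cells, rose by 1.18 ± 0.11 (adjusted p = 1.31e-24) in the authors' deposited table. Etv5, an Ets factor gene of a family with 3 of 11 promoters higher and 5 lower (4 and 3 on centring and with the trend removed), rose by 1.74 ± 0.16 (adjusted p = 4.10e-25), and Il12rb1, an interleukin receptor subunit gene, by 0.82 ± 0.07 (adjusted p = 5.27e-27) in the authors' deposited table.

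Lower promoters held more CpG dinucleotides than higher ones. The median number in the 300 base window was 24 for 1966 lower promoters, 19 for 342 higher ones and 22 for all 5000. Split by this number, the share called lower was 33.4% in the lowest of 4 classes (0 to 15) and 47.4% in the highest (31 to 63), and the share called higher 10.4% and 4.38%. Promoter strength moved with it, from a median base mean of 385 to 617, and its part in the result was not tested. Not every family followed: replication-dependent histone promoters had a median of 9 CpGs, with 11 of 17 lower and 1 higher. The GIMAP promoters had a median of 4 CpGs and the remodeller promoters 31. The 150 bases before the start of the largest GIMAP rises and the largest remodeller fall, among those with a single window, show this contrast, with each CG in capitals (RefSeq, GRCm38.p6): Gimap4 at chr6:48684428-48684577, plus strand; Gimap1 at chr6:48738897-48739046, plus strand; and Ino80 at chr2:119477688-119477837, minus strand.
Gimap4: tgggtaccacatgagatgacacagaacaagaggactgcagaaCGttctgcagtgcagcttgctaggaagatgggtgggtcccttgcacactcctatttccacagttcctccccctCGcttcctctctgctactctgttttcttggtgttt
Gimap1: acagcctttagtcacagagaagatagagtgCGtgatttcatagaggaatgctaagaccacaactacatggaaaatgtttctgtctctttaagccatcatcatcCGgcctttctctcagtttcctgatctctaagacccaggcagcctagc
Ino80: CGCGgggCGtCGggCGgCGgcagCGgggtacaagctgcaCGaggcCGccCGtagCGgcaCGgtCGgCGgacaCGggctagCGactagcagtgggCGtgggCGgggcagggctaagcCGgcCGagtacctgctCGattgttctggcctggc

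**Figure D2:**
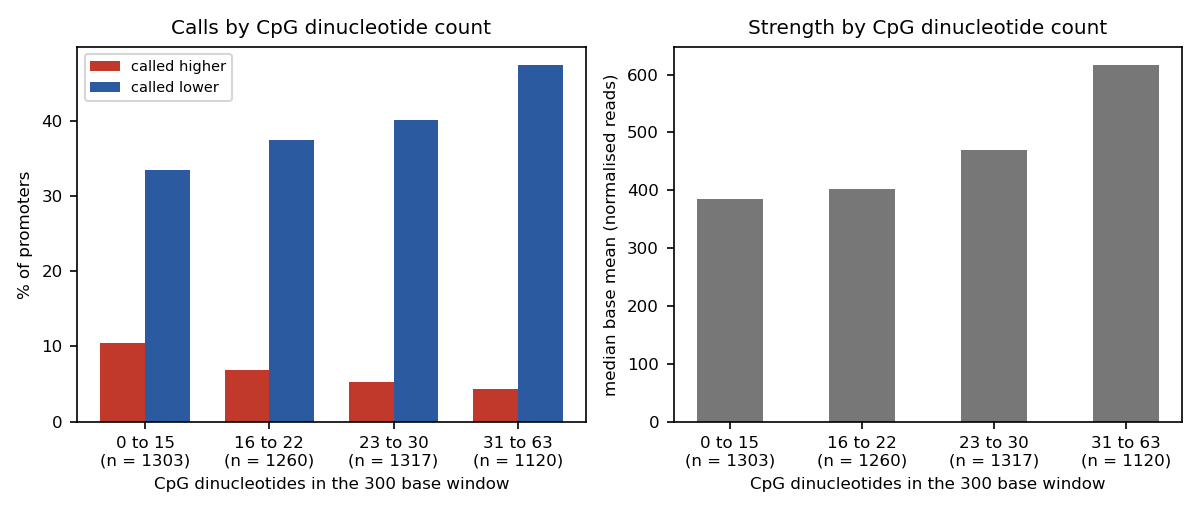
Left, percent of promoters called higher or lower in 4 classes of CpG number in the 300 base window; right, the median base mean of the same classes. The share called lower runs from 33.4% to 47.4% and the median base mean from 385 to 617.

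Distal regions, those off a TSS and assigned by the authors to the nearest gene symbol, had no such excess of losses. Of 48453 distal regions 4830 (9.97%) were higher and 4853 (10.0%) lower, with a median of 0.06. On centring 6206 were higher and 3593 lower, and with the trend removed 5464 and 3892. Of 87 families with at least 30 distal regions, 50 had more higher and 34 more lower. Chemokines and their receptors, effector molecules, GIMAP genes, semaphorins and several transcription factor families stood at the higher end, and netrins and one-carbon metabolism at the lower end. A long gene or a gene-poor interval contributes many regions to its family and single genes can hold many of a family's calls. Among the semaphorins Sema4d had 11 of 34 distal regions higher and 0 lower. Chemokines and their receptors had 33 higher and 6 lower of 106. Of these Ccr9 had 10 of 10 higher, Cxcr6 4 of 9 higher and 0 lower, and Cxcr4 6 of 53 higher and 4 lower. Ccr9 and Cxcr6 are neighbours on chromosome 9.

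**Figure D3:**
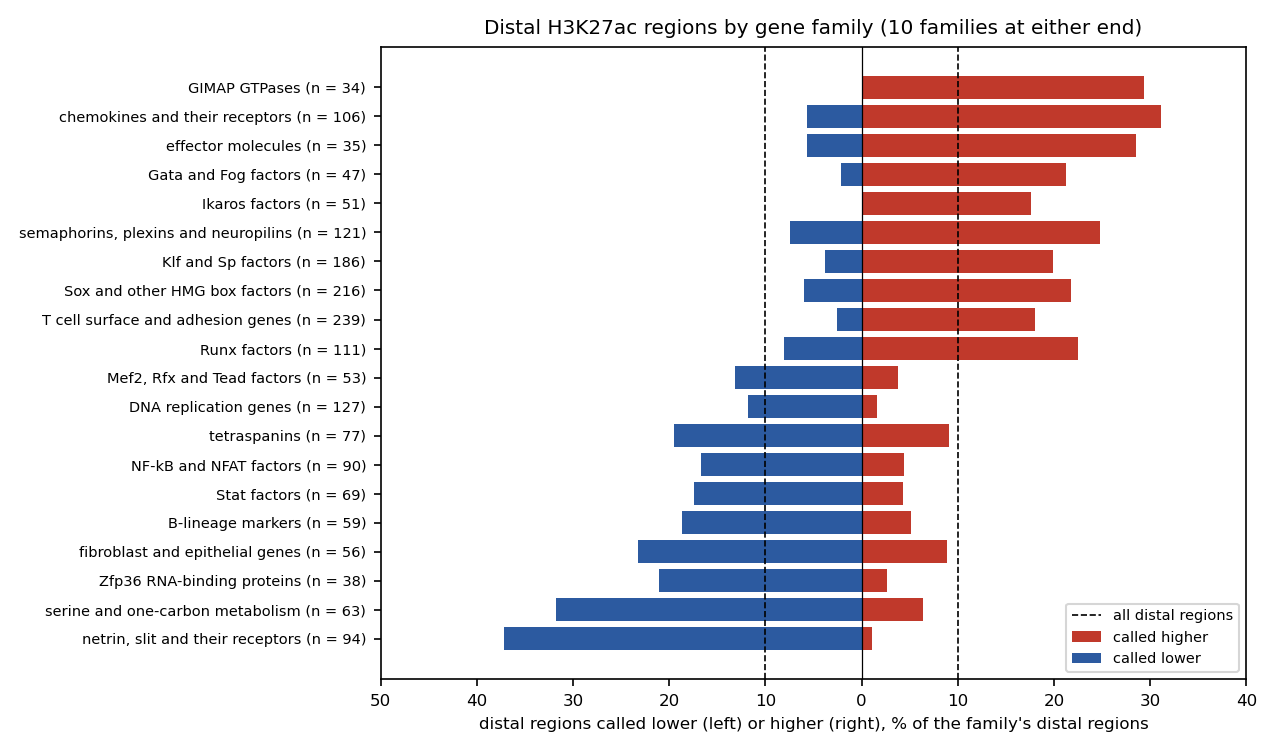
Percent of each family's distal regions called lower (left) or higher (right) for the 10 families at either end of the difference, with dashed lines at the shares of all distal regions, 10.0% and 9.97%. Netrin, slit and their receptors reach 37.2% lower, and chemokines and their receptors 31.1% higher.

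Several transcription factor families of the T lineage had more higher than lower distal regions, with most regions not called in each. The shares of all distal regions were 9.97% higher and 10.0% lower. The HMG box factors were higher at 47 (21.8%) and lower at 13 (6.02%) of 216 distal regions, although 9 of their 14 promoters were lower and 3 higher. Tox, a factor of thymocyte selection, had 12 of 50 higher and 0 lower, the smallest p lying 153461 bp from its TSS (chromosome 4, 7071332 to 7074402, mm9), at 1.34 ± 0.14 in the authors' deposited table. The promoters of the chromatin proteins Hmgb2 and Hmgb3 were at -1.07 ± 0.09 and -1.12 ± 0.26 in the authors' deposited table. Runx factors were higher at 25 (22.5%) and lower at 9 (8.11%) of 111 distal regions. Of these Runx1, a factor of blood formation, had 19 higher and 1 lower of 63. Runx3, its relative in CD8 T cells, went the other way, with 2 higher and 5 lower of 10. Klf and Sp factors were higher at 37 (19.9%) and lower at 7 (3.76%) of 186 distal regions, while 5 of their 10 promoters were lower and 0 higher.

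Gata3, the T helper and early thymocyte factor, had 10 of 34 distal regions higher and 0 lower. Its smallest-p region lay 284504 bp from the TSS (chromosome 2, 9513098 to 9515722) at 0.92 ± 0.10 (adjusted p = 6.29e-18) by the authors' deposited table, and its promoter stood at 0.33 ± 0.06. The Ikaros factors, zinc finger regulators of lymphocytes, had 9 of 51 distal regions higher (17.6%, against 9.97% of all distal regions) and 0 lower. Ikzf1 rose by 0.82 ± 0.08 (adjusted p = 6.17e-23) at chromosome 11, 11638409 to 11647211, in the authors' deposited table. Ets factors were higher at 35 (17.2%) and lower at 11 (5.42%) of 203, led by Ets1 with 11 of 42 higher and 0 lower.

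Signalling and effector gene families also had more higher than lower distal regions, again with most not called. Over all distal regions 9.97% were higher and 10.0% lower. PI3K, diacylglycerol kinase and protein kinase C genes had 55 higher (16.8%) and 18 lower (5.49%) of 328. Prkcq, the protein kinase C of the T cell synapse, had 8 of 35 higher and 0 lower, with 1.08 ± 0.07 (adjusted p = 1.18e-46) at chromosome 2, 11110737 to 11119743, in the authors' deposited table. The receptor signalling genes had 79 higher (14.1%) and 22 lower (3.93%) of 560, among them Nck2 with 12 of 48 higher and 0 lower. Surface genes had 43 higher and 6 lower of 239, and effector molecules 10 higher and 2 lower of 35. Il21r, the interleukin 21 receptor gene, was higher in 3 of 3 distal regions, up to the smallest-p value of 2.32 ± 0.18 (adjusted p = 4.62e-36) in the authors' deposited table. TGF beta signalling genes had 32 higher (18.3%) and 13 lower (7.43%) of 175, with 11 of 32 higher and 0 lower at Smad3, the signal transducer.

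In several families 1 gene held most of the lower distal regions. The netrin and slit family had 35 of 94 distal regions lower (37.2%) and 1 higher, of which 27 belonged to Ntn1, the gene of a secreted guidance protein. Serine and one-carbon metabolism had 20 of 63 lower (31.7%) and 4 higher, 14 of the lower at Mtrr, the methionine synthase reductase gene. The smallest-p Mtrr region lay 364810 bp from the TSS (-1.34 ± 0.09, adjusted p = 8.26e-52, in the authors' deposited table). NF-kB and NFAT factors had 15 of 90 lower (16.7%) and 4 higher, 9 of the lower at Nfatc2, a calcium-regulated factor of T cell activation. Stat factors, the cytokine signal transducers, had 12 of 69 lower (17.4%) and 3 higher, among them Stat5a with 5 of 15 lower and 0 higher. DNA replication genes had 15 of 127 lower (11.8%, near the 10.0% of all distal regions) and 2 higher, 8 of the lower at the primase gene Prim2.

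Neighbouring regions were then joined into runs, stretches of at least 5 consecutive regions of a chromosome, at most 100 kb apart, all called the same way. There were 43 runs of higher regions (270 regions, 4.94% of those called higher) and 50 runs of lower regions (315 regions, 3.96% of those called lower). Their median lengths were 35.0 kb and 42.8 kb. A run held a TSS-covering region in 16 higher and 13 lower cases, and an RBPJ-overlapping region in 2 and 6. Called regions that were neighbours within 2 kb went the same way in 91.5% of 1976 pairs, and beyond 100 kb in 72.2% of 417 pairs, which is given as a description.

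The run with the most higher regions covered Ccr9, Lztfl1, Cxcr6 and Slc6a20a on chromosome 9 (123566347 to 123716100, mm9), a cluster that includes chemokine receptor genes of thymocytes and resident T cells. Its 23 regions rose by 1.16 to 4.38 (median 2.73) over 149.8 kb in the authors' deposited table, and the Cxcr6 promoter by 1.79 ± 0.23 (adjusted p = 1.85e-13). The GSI values of the same regions ran from 0.61 to 3.99, with a median of 2.55. The next run, 12 regions over 234 kb of chromosome 9 assigned to 9530091C08Rik and Narg2, ran from 0.46 to 3.11, with a GSI median of 1.14. At Ddx19a and St3gal2 on chromosome 8, 9 regions ran from 0.54 to 3.26, and their GSI median was 0.42. The highest values of these runs, 4.38, 3.11 and 3.26, came from weak regions, with SEs of 0.92, 0.72 and 1.06. Their base means were 21.8, 16.4 and 8.01, against a median of 61.3 over all regions. Mtmr9 and Xkr6 on chromosome 14 had 7 regions at 0.79 to 1.71, where the GSI median was -0.27.

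T-lineage loci appeared among the runs too. Tcf7, the gene of TCF1, held a run of 6 regions (0.89 to 1.36) next to a run of 7 regions shared with Skp1a that included the Tcf7 promoter (0.70 ± 0.06, adjusted p = 1.92e-32, in the authors' deposited table). Of the 6 regions 2 overlapped RBPJ, and of the 7 regions 0 did. The GSI medians of these runs were -0.05 and -0.02. Dad1, which lies beside the T cell receptor alpha locus, held a run of 6 regions at 0.87 to 2.00 with a GSI median of 1.36. In the same stretch of chromosome 14, 22 of 68 regions assigned to A430107P09Rik were higher and 0 lower over 866 kb. A run of 6 regions also covered Gimap1, Gimap5 and Gimap7, at 0.92 to 1.64.

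**Figure D4:**
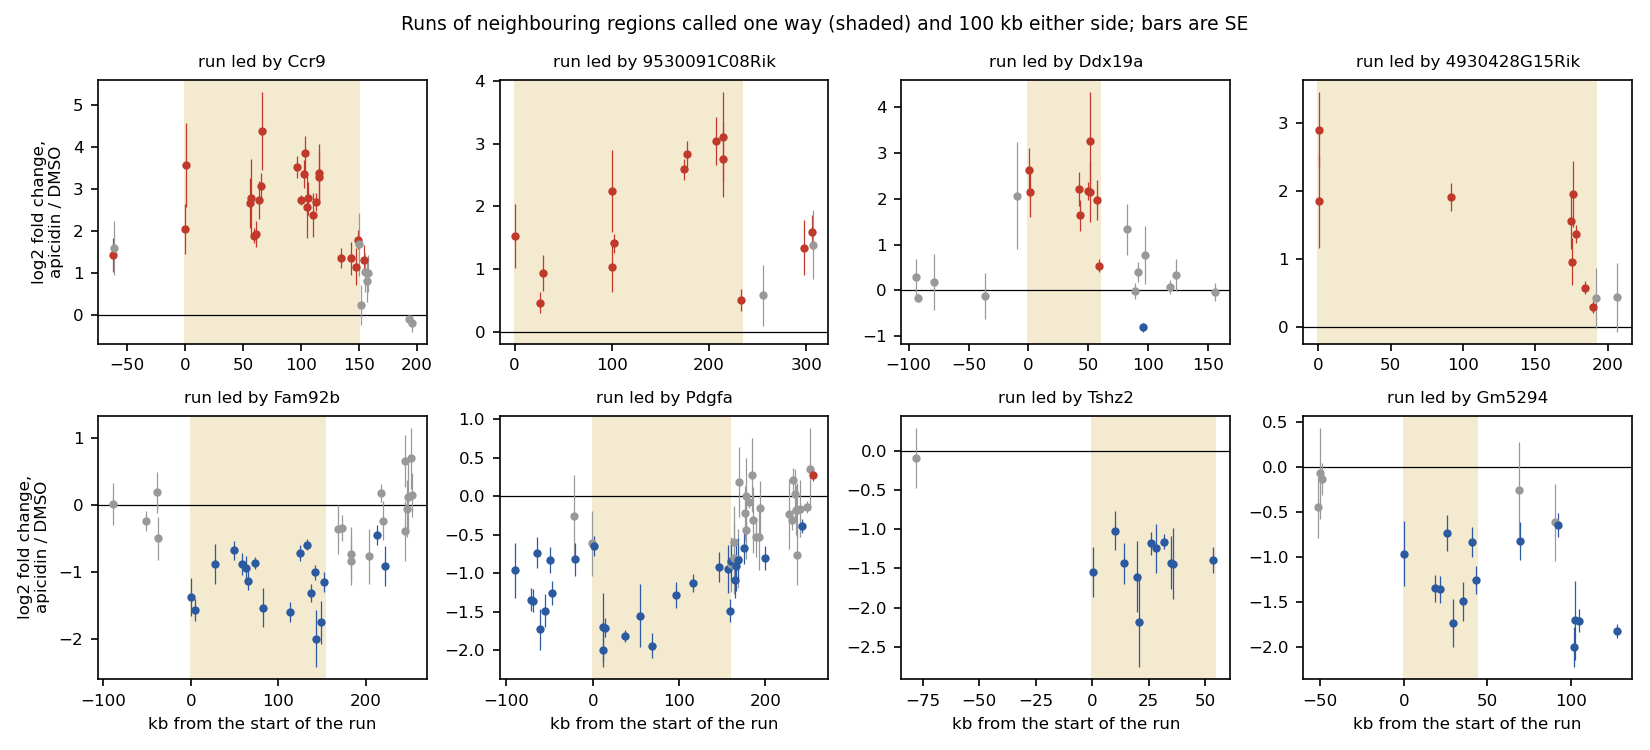
Log2 fold change with SE of each region against its distance from the start of a run (shaded) and in 100 kb either side, for 4 runs of higher regions (top) and 4 of lower regions (bottom); red points were called higher, blue lower and grey not called. The run led by Ccr9 spans 1.16 to 4.38 and the run led by Pdgfa -2.00 to -0.64, and the run led by Gm5294 is the left neighbour of the Pdgfa run.

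Among runs of lower regions the one with the most held 17 regions over 153 kb of chromosome 8 (122676094 to 122829037), 15 assigned to Fam92b and 2 to 6430548M08Rik, at -2.00 to -0.59. A run of 12 regions on chromosome 5 (139394691 to 139554170), assigned to Pdgfa, a growth factor gene, and Prkar1b, a protein kinase A subunit gene, had a median of -1.52 and a GSI median of -0.93. Its Pdgfa region at 139427346 to 139436174 fell by 1.81 ± 0.08 (adjusted p = 7.02e-121), and a run of 8 regions at Gm5294 lay beside it, by the authors' deposited table. Tshz2, a zinc finger factor gene, had 11 regions at -2.18 to -1.02 over 54.4 kb, with a GSI median of -0.37. The lowest values at Fam92b and Tshz2, -2.00 and -2.18, had base means of 35.8 and 21.6 and SEs of 0.43 and 0.58. Sik1, a salt-inducible kinase gene, and Cryaa shared 7 regions at -1.95 to -0.49, and Ptprf, a receptor phosphatase gene, had 8 at -1.54 to -0.44. A run of 8 regions at Stx8, a vesicle fusion gene, lay on chromosome 11 (67840373 to 67940592). A further run of 6 regions, 5 assigned to Stx8 and 1 to Ntn1, followed at 67951498 to 67991953. Beyond it lay the smallest-p Ntn1 region, 22006 bp long at 68006988 to 68028993, which stood at -0.80 ± 0.05 (adjusted p = 8.01e-46) by the authors' deposited table.

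Counted by gene, 1878 symbols had only higher regions among their called ones, 4154 only lower, 936 both and 5113 none. Genes were ranked by their number of called regions, which favours genes with many regions. Over all regions 9.69% were higher and 14.1% lower. Among the genes with the most higher and no lower regions, besides A430107P09Rik, were Mbp (15 of 56), Slc9a9 (14 of 20), Hivep2 (14 of 34) and Ankrd11 (14 of 46). Slc9a9, an endosomal sodium-proton exchanger gene, rose at its promoter region of 16078 bp by 1.28 ± 0.06 (adjusted p = 1.75e-91), and the GSI value there was 0.55 ± 0.06, per the authors' deposited table. Hivep2, a zinc finger factor gene, rose by 1.78 ± 0.16 (adjusted p = 2.84e-25) at a region 25617 bp from its TSS where the GSI value was 0.01 ± 0.18, in the authors' deposited table. The genes with the most lower and no higher regions were Ntn1 (28 of 44), Jazf1 (24 of 35), Hlcs (17 of 33), Fam92b (15 of 17) and Tbc1d22a (15 of 53). Jazf1, a zinc finger gene, fell at its promoter by 0.62 ± 0.05 (adjusted p = 2.80e-30) by the authors' deposited table. That region overlapped RBPJ, and its GSI value was -0.39 ± 0.05 (adjusted p = 1.67e-11) in the authors' deposited table. Hlcs, the biotin ligase gene, fell by 0.78 ± 0.06 (adjusted p = 9.17e-38) at chromosome 16, 94471510 to 94479232, by the authors' deposited table.

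At some genes promoter and distal regions moved in opposite directions. Of 5619 genes with both kinds of region, 91 had a lower promoter with at least 2 distal regions higher and none lower, 85 on centring and 57 after subtracting the trend. The reverse held at 23 genes, or 16 and 15, while 134 had both higher (215 and 201) and 233 both lower (114 and 113). Klf13, a zinc finger factor gene, had 10 of 44 distal regions higher (0.39 to 1.31) and its promoter at -0.56 ± 0.07 (adjusted p = 8.48e-15) by the authors' deposited table. Jak1, the cytokine receptor kinase gene, had 8 of 41 higher with its promoter at -0.38 ± 0.11 (adjusted p = 0.00417), and Irf2bp2, a corepressor gene, had 8 of 39 with its promoter at -0.24 ± 0.07, per the authors' deposited table. In the reverse class Nfatc2 had 9 of 21 distal regions lower (-1.43 to -0.41) and its promoter at 0.61 ± 0.11 (adjusted p = 1.55e-06) by the authors' deposited table. Stat5a, a transducer of interleukin signals, had 5 of 15 lower and its promoter at 0.32 ± 0.09, and Auh, an RNA-binding enoyl hydratase gene, 12 of 30 with its promoter at 0.42 ± 0.06, by the authors' deposited table.

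**Figure D5:**
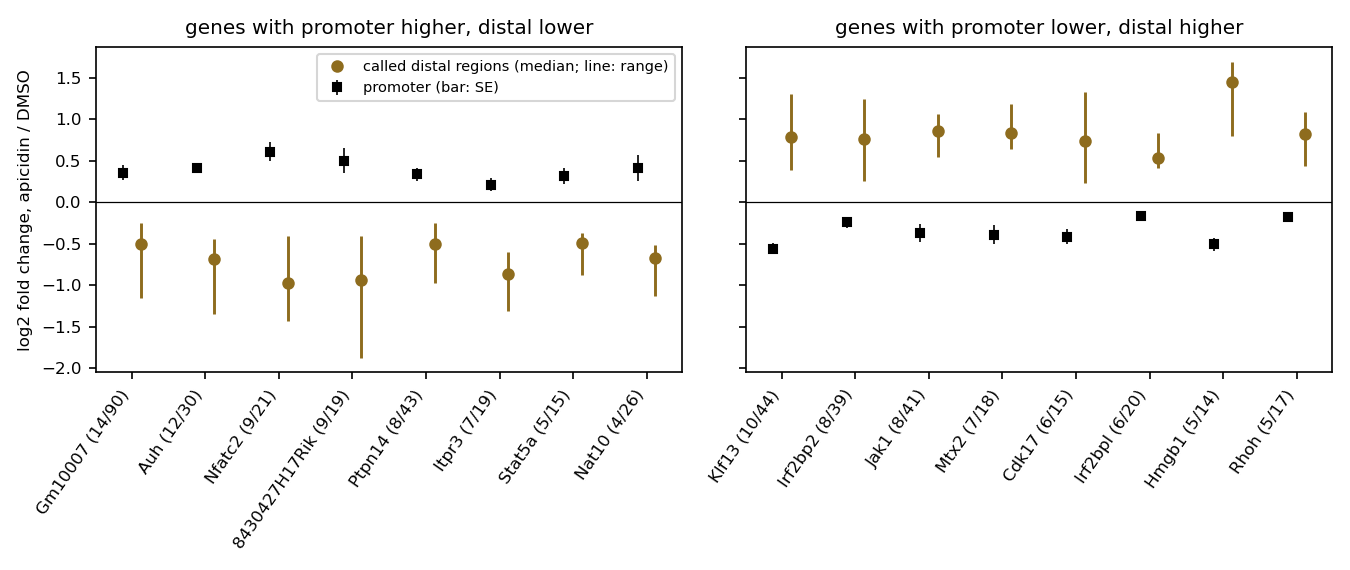
Promoter log2 fold change (squares, bar: SE) beside the median and range of the called distal regions (circles and lines) for 8 genes of each class; the numbers after a symbol are the distal regions called and in all. Promoters of the left class lie at 0.21 to 0.61 and those of the right class at -0.56 to -0.16.

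MicroRNA loci, by the symbols of the authors, had 120 of 845 distal regions lower (14.2%) and 52 higher (6.15%), against 10.0% and 9.97% of all distal regions. Of their 29 promoters 14 were lower (48.3%) and 2 higher (6.90%), against 39.6% and 7.89% of all promoters. Mir181a-1 is the locus of a microRNA that tunes T cell receptor sensitivity in thymocytes. Of its 60 regions 8 were higher and 0 lower (median 0.30), where 9.69% of all regions were higher and 14.1% lower. No region of this locus lay nearer than 12882 bp to the TSS. Mir5114 had 6 of 10 higher and 0 lower, Mir3075 9 of 29 lower and 0 higher, and Mir378b 7 of 30 lower and 0 higher. For each locus 1 mature sequence (RefSeq, GRCm38.p6) is shown to tell the loci apart, with the seed, bases 2 to 8, in capitals. Mir181a-1 has a further mature product, miR-181a-1-3p, which is not shown. No seed is shared among the sequences shown. They lie on chromosome 1 at 137966468 to 137966490 (miR-181a-5p), 19 at 44303171 to 44303192 (miR-5114), 14 at 25534491 to 25534511 (miR-3075-3p) and 11 at 88352839 to 88352858 (miR-378b), all on the plus strand. The regions are named for the nearest start site and need not act on these genes.
miR-181a-5p: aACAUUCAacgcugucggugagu
miR-5114: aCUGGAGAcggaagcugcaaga
miR-3075-3p: aUCCUUGGccuuccuaggugu
miR-378b: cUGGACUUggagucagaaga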

How the data were processed

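The series holds 11 chromatin immunoprecipitation and input libraries, of which 2 apicidin and 2 DMSO libraries are the H3K27ac samples compared. Bowtie2, FastQC, deepTools, SAMtools and the mouse build mm9 appear in the submitters' processing notes, without versions. No source used here names the region caller or read counter. Per the file headers, the deposited table holds DESeq2 output of unstated version. Base mean is a signal deposited as the authors' mean of normalised read counts. The log2 fold changes and their SEs are the authors'. The Wald score deposited by the authors equalled fold change over SE within 0.0782%. Raw and adjusted p-values are deposited too; Benjamini-Hochberg adjustment of the raw ones gave the adjusted ones within 5.40e-07. DMSO was assumed to be the reference of the fold change, which the headers do not state. No column holds values per library, so nothing was refitted, and the precision of a value is its SE (median 0.125 at promoters, 0.350 at distal regions).

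Regions were classed as promoters (distance 0 to a TSS, strongest per symbol) or distal. Members of 90 gene families were matched by symbol, runs were joined in Python 3.11.15 (pandas 2.3.3, numpy 2.4.6), and promoter windows came from RefSeq: 7653 of 7754 promoters matched by transcript, 7732 with symbols, and 5000 had a single window and entered the search for 15 motifs. Members and lists were chosen with earlier results of these data known, so counts describe families and no family was tested. Named were, per family, the 2 largest rises and falls among called promoters and the genes with most called distal regions; the 12 genes with most regions called one way; the 6 runs with the most regions each way; the genes with opposite promoter and distal calls; usual Notch targets were left out, and some genes the rule names are not reported here. Bub1, Chd4, Epc1, Epc2, Cdc20, Cdk1, Ube2c, Mki67, Herpud1, Gimap5, Gimap6, Gimap7, Cd3e, Cd3g, Cd247, Cd4, Cd8a and the runs at Mtmr9, Tcf7, Dad1, Gimap1, Ptprf, Stx8 and Sik1 fall outside that rule and were chosen after their values were seen. Alternatives were an adjusted p of 0.01, a fold change of at least 1 on the log2 scale, centring on the median of the stronger regions (base mean of at least 61.3), subtracting a trend over 50 bins of base mean, and keeping only the stronger regions; after centring or subtraction, p was recomputed from the shifted value over its SE and adjusted over all regions. The calling, run and trend steps were tested on simulated data.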

Additional observations from a re-analysis of the deposited data

How the results depend on the processing

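No paired analysis was possible because the deposited table holds no value per library; leaving out a replicate was not run for the same reason. Requiring a log2 fold change of at least 1 left 1944 regions higher and 1564 lower, against 5462 and 7958; fewer regions can pass by construction. Promoters called higher numbered 612 as deposited, 919 on centring and 1021 after subtracting the trend over base mean, and promoters called lower fell from 3073 to 2005 with the trend subtracted. Runs moved with their definition: allowing 1 uncalled region gave 101 higher and 145 lower runs, a minimum of 4 regions (chosen after seeing the data) gave 109 and 123, and a gap of at most 20 kb gave 33 lower runs, against 43 higher and 50 lower. Genes with a lower promoter and higher distal regions numbered 57 with the trend subtracted, against 91; the cause was not tested. The fold minimum also left 41 promoters higher and 165 lower, and 1902 distal regions higher and 1392 lower. Genes with both kinds of region higher went from 134 to 215 on centring and 201 with the trend subtracted, those with both lower from 233 to 114 and 113, and those with a higher promoter and lower distal regions from 23 to 16 and 15. The share of called regions that were higher went from 40.7% to 54.9% on centring and 52.4% with the trend subtracted, at promoters from 16.6% to 29.0% and 33.7%, and at distal regions from 49.9% to 63.3% and 58.4%. Of the regions listed for named genes, 1048 kept direction and call on centring and 76 lost the call, and with the trend subtracted 997 and 105. The median SE was 0.125 at promoters and 0.350 at distal regions.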
